A study of Mus musculus with 6 samples.

Results

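The genes described here encode the proteins of the cytoplasmic ribosome in mouse colon. They were chosen by symbol alone, as Rps or Rpl followed by a number and optionally the letters a, x or l, together with Rplp0, Rplp1, Rplp2 and Rpsa, and 82 of the 25339 genes in the deposited table met this rule. The rule used no measured value. Of the 82, 31 belong to the small subunit and 51 to the large subunit. A further 3 ribosomal proteins, Rps3a1, Fau and Rack1, fall outside the symbol rule and are given separately. RNA sequencing had been done on colon of mice that received lenvatinib, a drug that blocks the VEGF, FGF and PDGF receptor kinases, or its solvent DMSO. Each treatment had 3 libraries, numbered 1 to 3 as biological replicates. The labels give no strain, sex, age, dose or duration, and do not say whether colitis was induced, although the series title names colitis and B cell trafficking.

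Ribosomal proteins assemble with ribosomal RNA in the nucleolus into the subunits that decode messenger RNA and join amino acids. Their messenger RNAs are among the most abundant in dividing crypt cells and lymphocytes. The proteins, rather than the messages, are held in near equal proportion, because surplus proteins are degraded. Most of the messages begin with a run of pyrimidines, the terminal oligopyrimidine (TOP) motif. Through it, growth factor signals acting by way of the kinase mTOR set how actively the message is translated. That control acts mainly on translation, which RNA sequencing does not measure.

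The start of a gene carries the pyrimidine run, so the annotated starts of genes described below are shown, with Rpl28 added only as an example of a long run, from 15 bases before to 15 bases after the RefSeq start (build GRCm38.p6). The longest run of C or T in each window is in capitals.
Rps27 (chr3:90213634-90213663, minus strand): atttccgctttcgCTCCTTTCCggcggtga
Rps27l, first start (chr9:66946071-66946100, plus strand): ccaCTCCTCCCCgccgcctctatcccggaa
Rps27l, second start (chr9:66946398-66946427, plus strand): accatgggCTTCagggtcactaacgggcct
Rpl22l1 (chr3:28805493-28805522, plus strand): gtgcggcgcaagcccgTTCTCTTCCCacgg
Rpl22, first start (chr4:152325711-152325740, plus strand): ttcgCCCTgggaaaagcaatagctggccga
Rpl22, second start (chr4:152324421-152324450, plus strand): cgctgCTTCTggaatgttccagctcccact
Rpl10a, first start (chr17:28328456-28328485, plus strand): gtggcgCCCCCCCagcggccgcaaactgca
Rpl10a, second start (chr17:28328550-28328579, plus strand): gCTCTatttgagcgcatgcgcaaagcgctc
Rpl36a (chrX:134585639-134585668, plus strand): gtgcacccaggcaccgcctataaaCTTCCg
Rpl36al (chr12:69184053-69184082, minus strand): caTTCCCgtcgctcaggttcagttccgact
Rpl7l1 (chr17:46782642-46782671, minus strand): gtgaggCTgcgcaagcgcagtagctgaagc
Rplp0 (chr5:115559452-115559481, plus strand): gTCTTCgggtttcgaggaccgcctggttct
Rpl18 (chr7:45718056-45718085, plus strand): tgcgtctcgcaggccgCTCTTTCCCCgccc
Rpl28 (chr7:4792950-4792979, plus strand): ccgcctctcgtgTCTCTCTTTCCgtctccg
Rps27, Rpl18 and Rpl28 show the typical form, with runs of 9, 10 and 11 pyrimidines across or just after the start. Rpl22l1, a paralogue, also has a run of 10, whereas the longest run is 5 bases in Rpl36a, Rpl36al and Rplp0 and 2 bases in Rpl7l1. The starts of Rpl22 have runs of 4 and 5 bases and those of Rpl10a runs of 7 and 4. The run of 9 at the first Rps27l start lies wholly before the start, and the second Rps27l start has a run of 4.

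Entries in the RefSeq table were found for 61 of the 82 genes. Of these 61, 27 (44.3%) had a run of at least 8 pyrimidines within this window of 30 bases at 1 or more of their starts, against 15.2% of the 9322 tested genes with an entry. The ETS family motif CCGGAAG, searched on both strands over the whole 300 bases of each entry, was present in 25 of the 61 (41.0%) and in 20.2% of those 9322 genes. The E-box CACGTG was present in 6 of 61 (9.84%) against 11.7%, and TATAAA in 7 of 61 (11.5%) against 9.19%. These letters are descriptions of annotated windows, and RefSeq starts need not be the base at which colon transcripts begin.

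The libraries held 37870007 to 39489879 reads in genes, recovered from the deposited FPKM values (fragments scaled to gene length and library depth). Car1, Muc2 and Slc26a3, markers of colon epithelium, were present in every library, and the 11 colon markers together measured 10368 to 14252 FPKM in lenvatinib and 12980 to 13520 FPKM in DMSO libraries. Libraries 2 and 3 of each group were nearly alike: their differences were 2.38 (lenvatinib) and 2.63 (DMSO) times counting noise, against 10.2 to 24.4 for every other pair. The labels tie no library to an animal. DMSO 1 stood apart in carrying Y-linked Ddx3y (6.54 FPKM, listed at 0 in the other 5 libraries) and almost no Xist (0.00147 FPKM, against 15.9 to 19.8). Markers of small intestine summed to 630 to 942 FPKM in lenvatinib and 415 to 553 FPKM in DMSO libraries, and 8 of the 9 tested were higher in the limma test. All 8 macrophage markers were lower, at a sum of 142 to 196 FPKM against 341 to 386 FPKM.

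None of the ribosomal protein genes passed the test between lenvatinib and DMSO. Of the 82 genes, 79 had a mean of at least 1 FPKM and were tested in a limma fit over 11774 genes on log2(FPKM + 1), with p-values adjusted by Benjamini-Hochberg and called under 0.05. No gene of the 79 was called higher and none lower, where 1.10% of all genes tested were called higher and 0.934% lower (2.03% in either direction). At an unadjusted p under 0.05, 6 were higher and 1 lower, against 7.49% and 14.5% of all genes tested. Adjusted p ranged from 0.145 (Rpl17) upwards. The log2 fold changes, lenvatinib minus DMSO, lay between −0.17 and 0.21 for these 79 genes, with a median of 0.09 and an SD over genes of 0.07, whereas all genes tested had a median of −0.07 and an SD of 0.36. An absolute log2 fold change above 0.25 was found for 27.4% of all genes tested and for 0 of the 79. Standard errors lay between 0.06 and 0.14, and the lowest bound of a 95% interval was −0.44 (Rps2).

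**Figure D1:**
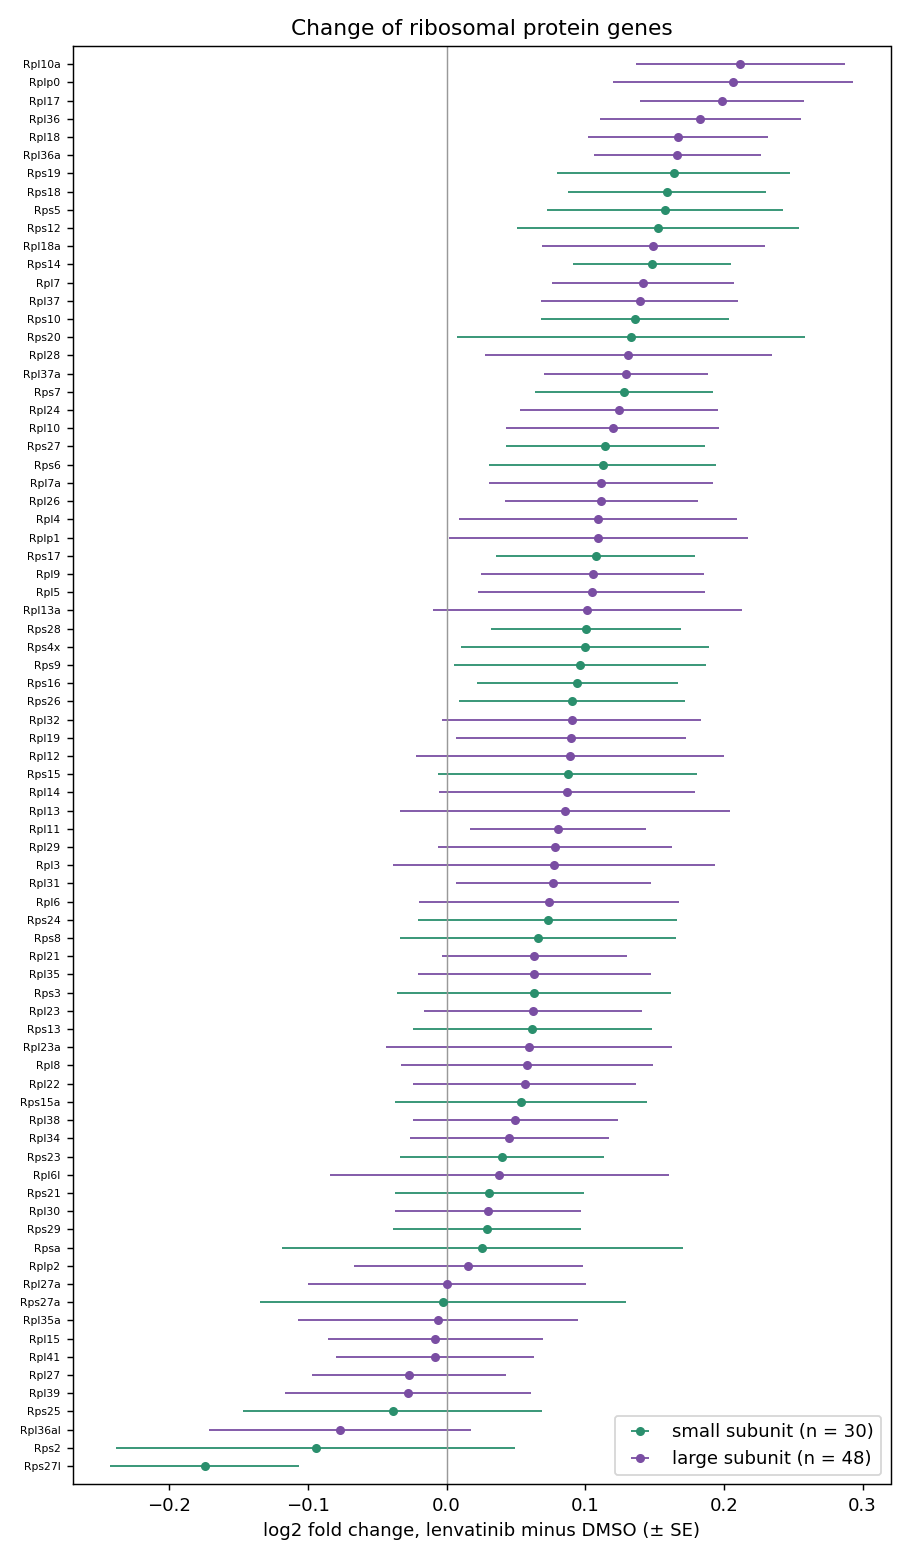
Log2 fold change (lenvatinib minus DMSO, log2(FPKM + 1) scale, horizontal axis) of the tested ribosomal protein genes (rows), with 1 gene not shown, with bars of 1 standard error from limma and colour by subunit. The values run from −0.17 for Rps27l to 0.21 for Rpl10a, 69 of all 79 tested genes are above 0, and small and large subunit genes are interleaved.

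Although no single gene passed, 69 of 79 had a positive log2 fold change (87.3%), where 36.1% of all genes tested did. The count was 41 of 79 without lenvatinib 1, where the median log2 fold change was 0.01 for the 79 genes and −0.10 for all genes tested. Without lenvatinib 1 and DMSO 1 it was 31 of 79, with medians of −0.03 and −0.10. With all 6 libraries, the small subunit had 27 of 31 positive with a median of 0.09, and the large subunit 42 of 48 with a median of 0.09. In lenvatinib libraries 1, 2 and 3 the 82 genes summed to 50116, 43777 and 43231 FPKM, and in DMSO libraries 1, 2 and 3 to 40545, 43821 and 44548 FPKM. Lenvatinib 2 and 3 lay between DMSO 1 and DMSO 2, so the groups overlapped, and lenvatinib 1 was the highest library and DMSO 1 the lowest. As a share of all FPKM this was 10.5 ± 0.847% in lenvatinib and 9.96 ± 0.415% in DMSO (SD, n = 3 each), and as a share of reads 3.80 ± 0.346% and 3.57 ± 0.178%. In bulk tissue, fewer cells of a type and less RNA per cell cannot be told apart.

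The libraries numbered 1 differed most. Lenvatinib 1 was the highest of the 6 libraries for 73 of the 79 genes (92.4%), where it was the highest for 25.3% of all genes tested. DMSO 1 was the lowest for 63 of 79 (79.7%), against 15.0% of all genes tested, and both held for 59 genes, against 3.96% of all. Lenvatinib 1 lay above all 3 DMSO libraries for 76 genes (32.8% of all genes tested) and above lenvatinib 2 and 3 for 76 genes (62.6% of all). DMSO 1 lay below DMSO 2 and 3 for 77 genes (49.3% of all). Relative to the DMSO mean, the median of the 79 genes was 0.22 in lenvatinib 1, 0.03 in lenvatinib 2 and 0.00060 in lenvatinib 3, and −0.07 in DMSO 1, 0.03 in DMSO 2 and 0.05 in DMSO 3, on the log2 scale. Over all genes tested the medians were 0.01, −0.10 and −0.10 in lenvatinib 1 to 3 and −0.02, 0.01 and 0.01 in DMSO 1 to 3. For 40 of the 79 genes, lenvatinib 2 and 3 both lay within the range of the DMSO libraries (50.6%, against 17.5% of all genes tested). Without lenvatinib 1 the median fold change of the 79 genes was 0.01, and 1 gene passed higher (Rpl17) and 2 lower (Rps27l and Rps2), where 9.85% and 28.2% of all genes tested passed. Without lenvatinib 1 and DMSO 1, a comparison of 2 near-alike libraries per group chosen after seeing the data, the median was −0.03, with 10 genes higher and 17 lower, where 18.7% and 43.5% of all genes tested passed.

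**Figure D2:**
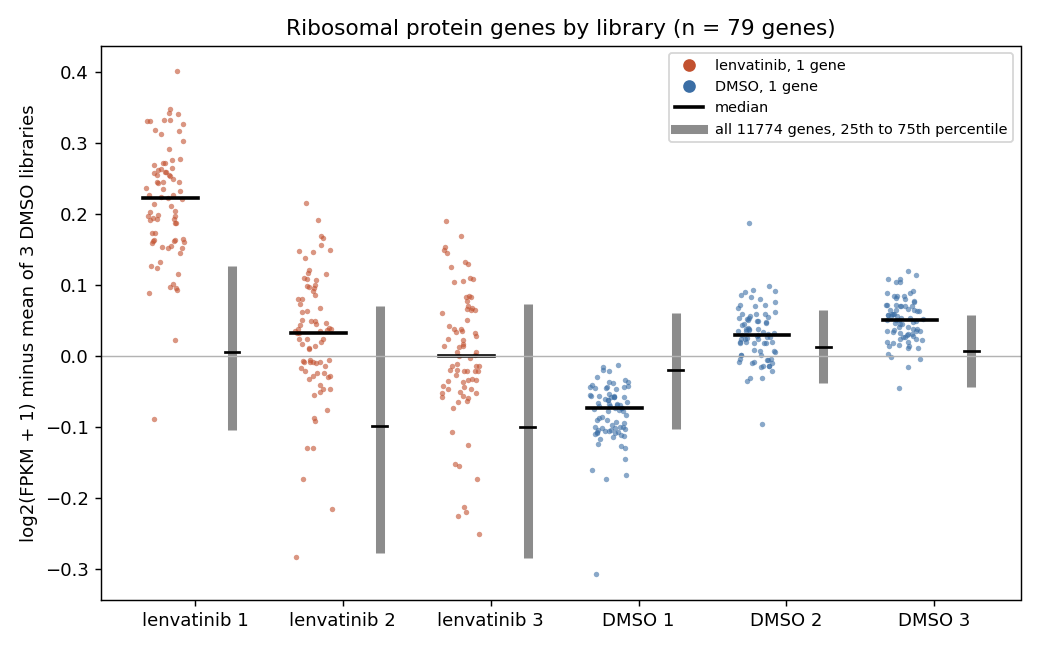
Each point is 1 of the 79 tested ribosomal protein genes in 1 library, as log2(FPKM + 1) minus the mean of the 3 DMSO libraries (vertical axis), with the median as a black bar. Grey bars give the 25th to 75th percentile of all 11774 genes tested. The lenvatinib 1 cloud sits highest, with a median of 0.22, the DMSO 1 cloud lowest, with a median of −0.07, and the other 4 libraries lie near 0.

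Cell type markers moved with the libraries as well, and their part in these levels was not tested. Among the lenvatinib libraries, the 10 B cell markers summed to 44.5 FPKM in lenvatinib 1 against 8.58 and 10.2 FPKM in lenvatinib 2 and 3, with 73.1 to 87.6 FPKM in DMSO. The 6 T cell markers in the table summed to 70.7, 13.5 and 15.6 FPKM in lenvatinib 1 to 3 and to 36.1, 56.3 and 55.4 FPKM in DMSO 1 to 3. The 14 proliferation markers summed to 336, 130 and 131 FPKM in lenvatinib 1 to 3 and to 258, 342 and 335 FPKM in DMSO 1 to 3. In lenvatinib 1 the T cell and ribosomal protein sums were both the highest of the 6 libraries, while its proliferation sum was within the DMSO range. None of these lists had a marker at 0 in all 6 libraries, and none of their tested markers passed. The 7 plasma cell markers, of which none passed, summed to 614, 336 and 330 FPKM in lenvatinib 1 to 3 and to 1917, 630 and 634 FPKM in DMSO 1 to 3, and were highest in DMSO 1, where the ribosomal protein sum was lowest.

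Levels were high. Over the 79 tested genes the mean level ranged from 30.7 to 1763 FPKM, with a median of 513 FPKM, and each rested on 960 to 64664 reads per library. Rpl41, the smallest ribosomal protein, measured 1878, 1675 and 1723 FPKM in lenvatinib 1 to 3 and 1697, 1756 and 1850 FPKM in DMSO 1 to 3. These groups overlapped fully. Next came Rplp1 of the P stalk, then Rps29 at 1240 ± 50.5 FPKM in lenvatinib and 1216 ± 66.3 FPKM in DMSO, Rplp0, and Rps26 at 1078 ± 66.5 and 1013 ± 73.7 FPKM (SD, n = 3 each). The groups overlapped for Rps29 and Rps26, and Rplp0 and Rps26 lay within the spread of one another in lenvatinib and in DMSO.

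Some genes with low levels had long gene models. Rps15a, a small subunit protein, measured 64.3 ± 6.98 FPKM in lenvatinib and 61.8 ± 3.19 FPKM in DMSO, but its recovered length was 5136 bases and it had 11357 reads in DMSO 1. Rps20 was counted over 3641 bases and measured 147, 114 and 109 FPKM in lenvatinib and 104, 114 and 117 FPKM in DMSO. By contrast Rps29 was counted over 322 bases. Across the 79 genes the level in FPKM ran against recovered length (Spearman rho −0.61 across genes, which are not independent replicates and where length is the divisor of FPKM), and reads per library had a rho of 0.23 with length. The comparison between treatments uses the same length on both sides: the shorter 39 genes (322 to 820 bases) and the longer 40 (821 to 5136 bases) had median fold changes of 0.09 and 0.08 on the log2 scale.

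Variation among libraries was small. The coefficient of variation had a median of 8.71% over the lenvatinib libraries and 5.21% over the DMSO libraries for the 79 genes, and of 10.4% and 7.10% for all genes tested. Between lenvatinib 3 and 2 the 79 genes differed with an SD of 0.06 on the log2 scale, where counting error alone gives 0.02, and between DMSO 3 and 2 the SD was also 0.06. Between lenvatinib 1 and the DMSO libraries the median difference was 0.17 to 0.30 with an SD of 0.08 to 0.10 over genes. A shift common to nearly all genes thus exceeded the differences from gene to gene around it in that library.

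Among the large subunit genes, the largest positive differences were in Rpl10a, Rplp0 and Rpl17. Rpl10a, a protein of the L1 stalk that helps release spent transfer RNA, measured 597, 529 and 515 FPKM in lenvatinib 1 to 3 and 454, 474 and 486 FPKM in DMSO 1 to 3. All 3 lenvatinib libraries were above all 3 DMSO libraries, and the log2 fold change was 0.21 (SE 0.08, adjusted p = 0.189). Rpl17, which lies near the exit of the tunnel for the new protein chain, measured 406, 390 and 380 FPKM in lenvatinib and 333, 336 and 355 FPKM in DMSO, again without overlap. Its log2 fold change of 0.20 (SE 0.06) had an adjusted p of 0.145, and over 21 alternative settings the adjusted p ran from 0.00560 to 0.926, with 2 passes, both without lenvatinib 1. Rpl36 measured 276, 246 and 241 FPKM in lenvatinib and 217, 222 and 233 FPKM in DMSO (log2 fold change 0.18, adjusted p = 0.217).

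Rpl18 was one of the 3 genes with a positive difference and no overlap whose highest library was not lenvatinib 1. It measured 335, 335 and 343 FPKM in lenvatinib and 281, 307 and 316 FPKM in DMSO (log2 fold change 0.17, adjusted p = 0.212). The other 2 were Rpl36a and Rps14. Rps14, a small subunit protein whose loss is known from a human bone marrow disorder, measured 969, 997 and 984 FPKM in lenvatinib and 853, 915 and 894 FPKM in DMSO (log2 fold change 0.15, adjusted p = 0.209). In all, 17 of the 79 genes lay higher in every lenvatinib library than in any DMSO library (21.5%, where 10.0% of all genes tested did), and 1 lay lower (1.27%, against 17.5%).

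The stalk and the central parts of the ribosome gave values that differed among themselves. Rplp0, the scaffold of the P stalk that recruits elongation factors, measured 1242, 1085 and 1074 FPKM in lenvatinib 1 to 3 and 906, 1013 and 1025 FPKM in DMSO 1 to 3. These groups did not overlap, and the log2 fold change was 0.21 (SE 0.09, adjusted p = 0.231). Its partner Rplp1 measured 1983, 1618 and 1576 FPKM in lenvatinib and 1475, 1628 and 1679 FPKM in DMSO, so that lenvatinib 2 and 3 were below DMSO 2 and 3 (log2 fold change 0.11, and −0.050 without lenvatinib 1 and DMSO 1). Rplp2 measured 919, 792 and 785 FPKM and 783, 831 and 850 FPKM. All 3 stalk genes were highest in lenvatinib 1.

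Rpl5 and Rpl11 bind the ribosomal 5S RNA and, when assembly is disturbed, the p53 regulator Mdm2. Rpl5 measured 365, 313 and 312 FPKM in lenvatinib and 292, 314 and 312 FPKM in DMSO, and the groups overlapped. Rpl11 measured 288, 269 and 266 FPKM in lenvatinib and 247, 266 and 266 FPKM in DMSO, and did not overlap by a margin of under 1 FPKM. Positive differences were found in 87.3% of the 79 genes, which had a median of 0.09, and in 36.1% of all genes tested. Among the 79 are 19 genes mutated in human Diamond-Blackfan anaemia, a failure of red cell production. Of these, 0 passed and 16 had positive differences with a median of 0.09, near the values of the whole family. Rps19, the commonest of them, measured 504, 436 and 424 FPKM in lenvatinib and 385, 419 and 410 FPKM in DMSO (log2 fold change 0.16, adjusted p = 0.290).

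Among the small subunit genes, Rps18 of the head of that subunit measured 946, 872 and 876 FPKM in lenvatinib and 749, 834 and 831 FPKM in DMSO (log2 fold change 0.16, adjusted p = 0.25). Rps6, the substrate of the S6 kinases downstream of mTOR, measured 409 ± 37.0 FPKM in lenvatinib and 377 ± 15.9 FPKM in DMSO (SD, n = 3 each; adjusted p = 0.419).

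Negative differences were few, in 10 of 79 genes. Rps2, near the entry of the messenger RNA channel, measured 1107, 779 and 811 FPKM in lenvatinib and 889, 1011 and 947 FPKM in DMSO. Lenvatinib 1 was the highest and lenvatinib 2 and 3 the lowest of the 6 libraries, so the log2 fold change of −0.09 (SE 0.14, adjusted p = 0.698) joins opposite values. Without lenvatinib 1, which leaves the near-alike lenvatinib 2 and 3, it was −0.25 (limma adjusted p = 0.0345). In that fit 38.0% of all genes tested passed. Over the 21 alternatives the adjusted p for Rps2 ran from 4.61e-04 to 0.9999. The lowest was without lenvatinib 1 and DMSO 1, where 62.2% of all genes tested passed. Rpsa, also known as a laminin receptor, was likewise highest in lenvatinib 1, at 667, 484 and 486 FPKM in lenvatinib and 479, 553 and 561 FPKM in DMSO, and its log2 fold change was 0.03. Rps25 measured 596, 491 and 451 FPKM in lenvatinib and 510, 531 and 530 FPKM in DMSO, with a log2 fold change of −0.04 that was 0.03 with TMM scaling. Rpl39, a small protein lining the exit tunnel, measured 693, 632 and 582 FPKM in lenvatinib and 614, 631 and 697 FPKM in DMSO, with a log2 fold change of −0.03 that was 0.04 with TMM scaling.

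For 4 paralogues the level relative to the standard gene was lower in each lenvatinib library than in each DMSO library, and for 4 further pairs the groups overlapped. Such a ratio is taken within a library and does not depend on its scaling. The 4 without overlap, Rps27l, Rpl36al, Rpl22l1 and Rpl7l1, were those of 8 listed pairs that had both genes at a mean of at least 0.1 FPKM, and the list was chosen with earlier results known. The exact permutation test gave a two-sided p of 0.1 for each, the smallest that 3 against 3 libraries allows, and 0.1 adjusted over the 4 pairs, so none passed the threshold of 0.05. With libraries 2 and 3 averaged, the exact permutation p was 0.333 for each, the smallest that 2 against 2 allows. Outside that list, Rpl6l was 9.8, 10.7 and 9.0% of Rpl6 in lenvatinib 1 to 3 and 9.38, 10.3 and 10.6% in DMSO 1 to 3. Rps27rt was 1.80, 2.22 and 2.45% of Rps27 in lenvatinib and 1.90, 2.73 and 2.35% in DMSO. The groups also overlapped for Rpl37rt relative to Rpl37 and for Rpl32l relative to Rpl32, so the direction of the 4 listed pairs was not common to all such genes.

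Rps27l, a p53-responsive paralogue of Rps27, was the 1 tested gene of the 79 that lay lower in every lenvatinib library, at 36.4, 33.3 and 33.1 FPKM, against 36.8, 38.8 and 40.8 FPKM in DMSO 1 to 3. The gap between lenvatinib 1 and DMSO 1 was under 1 FPKM. Its log2 fold change was −0.17 (SE 0.07, adjusted p = 0.213, with 9.28e-04 to 0.942 over 21 alternatives, of which 2 passed). Both passes were without lenvatinib 1, where 38.0% of all genes tested passed. The lower of them was also without DMSO 1, where 62.2% passed. Rps27 itself measured 1022, 967 and 984 FPKM in lenvatinib and 907, 857 and 986 FPKM in DMSO. Rps27l was thus 3.46 ± 0.0984% of Rps27 in lenvatinib and 4.24 ± 0.255% in DMSO (SD, n = 3 each), a difference of −0.29 in the log2 ratio. Rps27l had 3529 to 4368 reads per library over 2748 bases, and Rps27 had 11745 to 13536 over 346 bases. The size of this share thus depends on the gene models.

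Rpl22l1 measured 144, 137 and 134 FPKM in lenvatinib and 162, 156 and 153 FPKM in DMSO, while its partner Rpl22 measured 105 ± 9.11 FPKM in lenvatinib and 100.3 ± 4.68 FPKM in DMSO (SD, n = 3 each). In FPKM the paralogue was at 133 ± 6.76% of Rpl22 in lenvatinib and 157 ± 11.6% in DMSO (difference −0.24 in the log2 ratio). In reads the order turns, with 2518 to 3010 reads per library for Rpl22l1 counted over 486 bases and 7970 to 9726 for Rpl22 over 2208 bases, so which of the pair is more abundant depends on the gene models. Rpl36al was 51.9 ± 5.72% of Rpl36a in lenvatinib and 61.2 ± 2.64% in DMSO (difference −0.24), and Rpl7l1 was 3.48 ± 0.113% of Rpl7 in lenvatinib and 4.41 ± 0.313% in DMSO (difference −0.34). Rpl7l1 was counted over 2606 bases and Rpl7 over 934, so the size of that share also depends on the gene models. Rpl36a and Rpl36al encode nearly identical proteins, and ribosomal protein genes in general have many processed copies in the genome, so reads may be split or lost between copies and single values are uncertain.

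**Figure D3:**
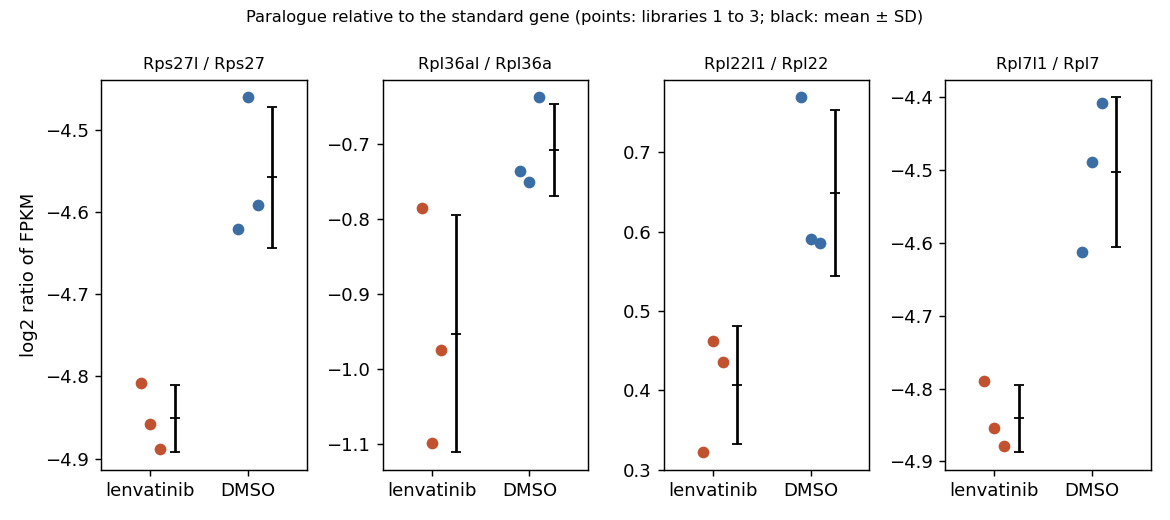
Log2 ratio of paralogue to standard gene in FPKM (vertical axis, a separate range in each panel) for 4 pairs, with lenvatinib left of DMSO, 1 point per library, and the mean ± SD (n = 3) in black. In each panel the 3 lenvatinib points lie below the 3 DMSO points, by 0.24 to 0.34 on average.

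The 3 untested genes were near or at the limit of detection. Rpl32l had 14, 19 and 19 reads in lenvatinib 1 to 3 and 24, 13 and 20 reads in DMSO 1 to 3. The testis paralogue Rpl39l had 1, 3 and 1 reads in lenvatinib and 0, 4 and 2 reads in DMSO, and the heart and skeletal muscle paralogue Rpl3l had 7, 1 and 2 reads and 4, 0 and 1 reads. A count of 0 allows up to 3 reads, so Rpl39l and Rpl3l were not separable from 0 in most libraries.

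The 3 ribosomal proteins outside the symbol rule also had positive differences, and none passed. Fau, whose product is cut to release the small subunit protein eS30, measured 598, 643 and 638 FPKM in lenvatinib and 503, 544 and 558 FPKM in DMSO, without overlap (log2 fold change 0.23, adjusted p = 0.142). Rack1, a scaffold on the small subunit, measured 763 ± 78.8 FPKM in lenvatinib and 703 ± 43.8 FPKM in DMSO. Rps3a1, also of the small subunit, measured 803 ± 105 FPKM in lenvatinib and 767 ± 33.2 FPKM in DMSO (SD, n = 3 each), and its log2 fold change of 0.06 was −0.047 without lenvatinib 1.

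Other genes of the translation machinery are given by list, with the same fit. In limma 0 of 19 translation factors and related genes of the TOP class passed, with 3 at an unadjusted p under 0.05 (22.0% of all genes tested, either direction) and a median of 0.02. Of the 19, 18 were highest in lenvatinib 1, where 25.3% of all genes tested were. Eef2, which moves the ribosome along the message, measured 1138, 1048 and 1041 FPKM in lenvatinib and 893, 918 and 907 FPKM in DMSO. These groups did not overlap (log2 fold change 0.25, adjusted p = 0.107, with 2.14e-04 to 0.926 over 21 alternatives). The lowest was without lenvatinib 1 and DMSO 1, where 62.2% of all genes tested passed. The helicase cofactor Eif4b measured 119, 114 and 114 FPKM in lenvatinib and 99.6, 101 and 97.9 FPKM in DMSO (log2 fold change 0.21, adjusted p = 0.107), and Eif3f, a subunit of the largest initiation factor, 212, 187 and 192 FPKM and 160, 167 and 170 FPKM (0.25, adjusted p = 0.124).

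Ribosome assembly factors, which process ribosomal RNA in the nucleolus, had their lowest list medians in lenvatinib 2 and 3. Of 36 genes 0 passed in limma, with 5 at an unadjusted p under 0.05, a smaller share than the 22.0% of all genes tested. Of the 36, 35 had negative differences, where 63.9% of all genes tested did, and the median was −0.25, beside −0.07 for all genes tested. The list median relative to the DMSO mean was 0.05 in lenvatinib 1, −0.39 in lenvatinib 2 and −0.35 in lenvatinib 3, and −0.09, 0.06 and 0.04 in DMSO 1 to 3, where all genes tested had −0.10 in both lenvatinib 2 and 3. Wdr75, of the small subunit processome, measured 6.82, 4.81 and 5.48 FPKM in lenvatinib and 7.57, 8.05 and 8.21 FPKM in DMSO (log2 fold change −0.43, adjusted p = 0.125). Nop10, of the particles that place pseudouridines in ribosomal RNA, measured 35.4 ± 6.14 FPKM in lenvatinib and 46.5 ± 3.79 FPKM in DMSO (SD, n = 3 each; adjusted p = 0.170). The sum of the proliferation markers was low in the same 2 lenvatinib libraries, and its part in these levels was not tested.

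RNA polymerase I transcribes ribosomal RNA. Of 14 listed genes for its subunits and its initiation factors, 0 passed and the median was −0.14, with 3 at an unadjusted p under 0.05 (22.0% of all genes tested). The polymerase subunit gene Polr1h measured 21.2, 21.1 and 19.2 FPKM in lenvatinib and 25.3, 28.2 and 28.7 FPKM in DMSO (log2 fold change −0.40, adjusted p = 0.0591, with 2.25e-04 to 0.849 over 21 alternatives, of which 5 passed). The lowest was without lenvatinib 1 and DMSO 1, where 62.2% of all genes tested passed. Polr1c, shared with RNA polymerase III, measured 47.9, 48.1 and 49.5 FPKM in lenvatinib and 40.7, 41.6 and 40.3 FPKM in DMSO (0.24, adjusted p = 0.0809). These 2 subunits thus differed in direction without overlap of the groups. Of 20 aminoacyl-tRNA synthetases 0 passed, with 5 at an unadjusted p under 0.05 (22.0% of all genes tested) and a median of −0.20. Among them Tars measured 30.6, 26.5 and 25.7 FPKM in lenvatinib and 34.0, 34.2 and 34.2 FPKM in DMSO (−0.30, adjusted p = 0.115).

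Of 78 mitochondrial ribosomal protein genes, which serve the separate ribosome of mitochondria, 0 passed in limma, with 6 at an unadjusted p under 0.05 (22.0% of all genes tested). Their median was −0.11, beside −0.07 for all genes tested. Lenvatinib 1 was the highest library for 18 of the 78, near the 25.3% of all genes tested, and for 73 of the 79 cytoplasmic genes. Mrpl22 averaged 11.1 FPKM in lenvatinib and 13.7 FPKM in DMSO, without overlap (adjusted p = 0.136). Some initiation factors, among them Eif4b and Eif3f, were counted in the TOP list above. The other 19 initiation factors listed had a median of −0.09 with 0 passing and 3 at an unadjusted p under 0.05 (22.0% of all genes tested). The lowest p belonged to Eif2s1, a subunit of the factor that brings the first transfer RNA (20.8, 19.4 and 18.6 FPKM in lenvatinib and 22.0, 25.8 and 24.6 FPKM in DMSO). Of 6 tested S6 kinase genes 0 passed and 0 had an unadjusted p under 0.05. Of 15 tested genes of the mTOR and MYC pathways 0 passed and 1, the MYC partner Max, reached that level (22.0% of all genes tested). Myc itself measured 19.3, 10.5 and 10.8 FPKM in lenvatinib and 9.47, 15.1 and 15.8 FPKM in DMSO, highest in lenvatinib 1 and lowest in DMSO 1. Most of its list did not share this order. Of the 15 tested genes 4 were highest in lenvatinib 1 (25.3% of all genes tested) and 1 was lowest in DMSO 1 (15.0% of all).

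**Figure D4:**
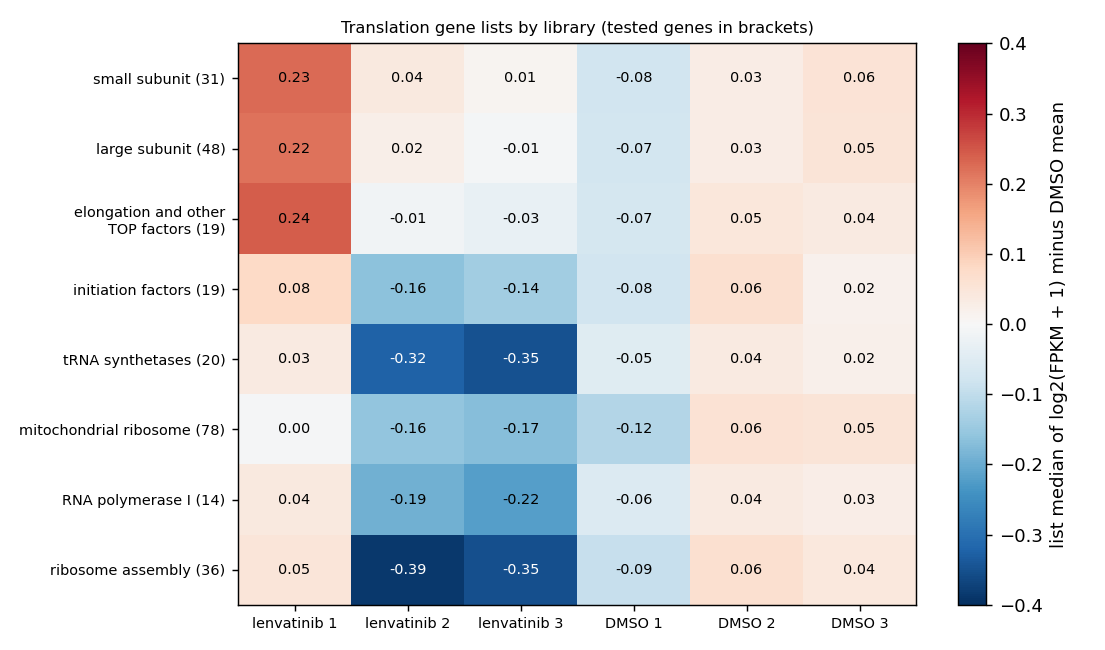
Median over the tested genes of each list (rows, number of genes in brackets) of log2(FPKM + 1) minus the mean of the DMSO libraries, in each library (columns), with red above and blue below 0. Both ribosomal subunits and the TOP factors are highest in lenvatinib 1 (0.22 to 0.24) and near 0 in lenvatinib 2 and 3, where ribosome assembly factors are lowest (−0.39 and −0.35).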

How the data were processed

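RNA from mouse colon was sequenced in 6 libraries, 3 from animals given lenvatinib and 3 from animals given DMSO. RNA was extracted with TRIzol, per the labels' protocols. The authors deposited 1 table of FPKM values for 25339 genes. Per the submitters' processing notes, HTSeq and build GRCm39 were used. The labels spell the control columns differently from the table, and these were matched by number. The aligner, gene annotation, strandedness and handling of multiply mapped reads were not given in the sources used here. Whole reads (within 0.01) and gene lengths were recovered for all 23951 genes above 0, and lengths were whole (within 0.05 bases) for all 13719 genes with at least 20 reads in each library. Recovered totals were 37996789 to 39623411 reads, of which 99.7% lay in the table. Tested ribosomal protein genes had at least 960 reads per library, and read limits cover counting error only.

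The 11774 genes averaging 1 FPKM or more were tested on log2(FPKM + 1) with limma 3.58.1 in R 4.3.3 (trended, robust prior, two-sided, Benjamini-Hochberg adjustment over all genes tested). This scale understates changes of low genes. P-values measure the spread between libraries, which may be technical. Ratios of paralogues, with 0.1 FPKM added to each value, used exact permutation tests. The symbol rule uses no measured value, but this gene family and the lists were chosen with earlier results of these data known. Genes named were the 5 largest differences each way, the 5 highest levels, genes under 1 FPKM, paralogues, and the smallest p of each list; others were chosen for their role or after their values were seen. Alternatives covered the pseudocount, filter, scaling, prior, blocks and leaving out libraries. Promoter sequences are from RefSeq GRCm38.p6. Some genes that these rules select are not reported here.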

Additional observations from a re-analysis of the deposited data

How the results depend on the processing

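With all 6 libraries in the fit, no ribosomal protein gene was called under any pseudocount, filter, scaling, prior or block tried. The median log2 fold change of these genes lay between 0.07 (quantile normalization) and 0.16 (TMM and median of ratios scaling, and voom on recovered reads, added after seeing the data). Scaling to their own median, also added later, gave 0.01, but that scaling sets this median near 0 by construction. Leaving out 1 library gave 0 to 1 genes higher, 0 to 2 lower and a median of 0.01 to 0.13, with all calls arising without lenvatinib 1, where 4479 of all genes tested passed. Without lenvatinib 1 and DMSO 1 the counts were 10 higher and 17 lower and the median −0.032; the cause was not tested. The fit with the replicate number as a block called 29 of all genes tested, against 239, and 0 ribosomal protein genes. Deviations from the group mean of same-numbered libraries correlated at −0.20, −0.16 and −0.15. Because libraries 2 and 3 are near-alike in each group, these values mostly repeat the same contrast. They cannot decide whether same-numbered libraries belong together. Averaging libraries 2 and 3 left 3 genes and treating them as a random block 46, with 0 ribosomal protein genes in both and medians of 0.14.

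Some small differences changed sign, and the cause was not tested. With TMM scaling, median of ratios scaling and voom, Rps25 was 0.030, 0.029 and 0.030 and Rpl39 0.041, 0.040 and 0.041. With libraries 2 and 3 averaged, and with them as a random block, Rps2 was 0.0084 and 0.00032, Rps25 0.027 and 0.022, and Rpl39 0.023 and 0.019. Leaving out 1 library, Rps25 ranged from −0.15 to 0.048, Rpl39 from −0.092 to 0.034 and Rps3a1 from −0.047 (without lenvatinib 1) to 0.118. Scaled to the members' median Rps3a1 was −0.021. Without lenvatinib 1 and DMSO 1, Rplp1 was −0.050, Rack1 −0.022 and Rps3a1 −0.084. The 4 paralogue ratios and the share of FPKM kept their direction under the alternatives tried for them. Planned count tests on recovered reads with edgeR and DESeq2 were not run; limma voom on those reads was run in their place.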
